A study of Mus musculus with 79 samples.

Results

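Sorted T+ Sox2+ cells were compared with sorted Sox2+ cells, both from the caudal ends of wild-type (WT) mouse embryos at Theiler stage 12 (TS12), strain C57BL/6N. T (Brachyury) is a T-box transcription factor needed for mesoderm formation, and Sox2 is a SoxB1 transcription factor of neural and progenitor cells. Each group is 1 library, so the comparison uses 2 of the 79 samples of the series, has no replicate error and allows no p-value. The embryos were made from embryonic stem cells by tetraploid complementation, and tissue was pooled before sorting with no number of embryos given in the labels. RNA came from about 2500 cells, the library used the equivalent of about 1000 cells and 14 amplification cycles. Levels are the authors' FPKM, that is, mapped fragments scaled to transcript length and library size. A gene was compared if it had at least 5 FPKM in 1 of these libraries, which held for 8495 of 21517 gene symbols kept, and the difference is that of log2(FPKM + 1), T+ Sox2+ minus Sox2+. Folds are called on that scale, which understates the change of low genes.

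Other RNA libraries of the series are used beside these. The remaining sorted fraction, T+ cells of WT embryos at TS12, was deposited in the same table and made with the same kit, and its values are set beside the others without a test. T+ cells of T knockout (T KO, allele T2J/2J) and WT embryos at TS12 and TS13 were deposited in a table of their own, with 1 library each, another kit and about 20000 cells. Their T KO libraries are labelled C57BL/6J and their WT libraries C57BL/6N, so genotype and strain cannot be told apart. T was at 4.61 FPKM in T KO and 69.8 in WT cells at TS12 and at 3.32 and 76.4 at TS13, lower in the libraries labelled T KO at both stages. The T+ WT library of TS12 in that table stood apart from the other 6 bulk libraries, with 1031 of 1457 sensory receptor genes above 0 where the others had 22 to 34. Beside the bulk data there are 53 single T+ Sox2+ cells (WT, TS13) from a microfluidic chip.

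Neuro-mesodermal progenitors sit at the tail end of the embryo and feed both the spinal cord and the presomitic mesoderm, the unsegmented tissue from which somites form. Wnt and FGF signals maintain them. Cells that turn to mesoderm switch on Tbx6 and Msgn1 and leave the epithelium, and cells that turn to the neural tube switch on SoxB1, Irx and Nkx factors.

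The promoter windows of RefSeq (build GRCm38.p6) hold 250 bases before and 50 after each start site. They were searched on both strands for 4 kinds of short word: AGGTGTGA for T-box factors, AACAAAG or AACAATG for Sox factors, CTTTGAT for Tcf/Lef factors, and CATCTG for an E-box. A window was found for 93 of the 130 genes that were 2-fold or more higher in T+ Sox2+ cells, for 86 of the 120 lower genes and for 6885 of all 8495. Shares are of genes with a window, since a gene can have several. The E-box word lay in a window of 17.2% of the higher genes, 17.4% of the lower genes and 11.9% of all. For the Sox words the shares were 7.53%, 5.81% and 6.33%. For the Tcf/Lef word they were 2.15%, 5.81% and 2.93%. The T-box word lay in a window of 1.08% of the higher genes, 0% of the lower and 0.828% of all. No windows held overlapping words of different kinds (0 windows). Stretches of windows that hold such a word are shown for genes the values below turn on, 3 higher and 1 lower, on the gene's strand, with the word in capitals. A word is a match of letters and not a site of binding.
Msgn1: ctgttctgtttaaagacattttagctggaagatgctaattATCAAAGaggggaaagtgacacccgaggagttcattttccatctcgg
Dkk1: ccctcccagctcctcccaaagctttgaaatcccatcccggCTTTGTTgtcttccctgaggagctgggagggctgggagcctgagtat
Fabp7: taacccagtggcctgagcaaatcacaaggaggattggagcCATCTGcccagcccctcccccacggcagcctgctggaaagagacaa
Cdh6: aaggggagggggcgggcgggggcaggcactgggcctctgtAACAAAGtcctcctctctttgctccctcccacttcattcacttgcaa
Msgn1 encodes a basic helix-loop-helix factor of presomitic mesoderm, and its stretch (chr12:11209105-11209191, minus strand) holds the Tcf/Lef word on the opposite strand, 203 bases before the start. Its RefSeq model begins at the start codon, so this window may not be centred on the true transcription start. Dkk1, a secreted Wnt antagonist, has a Sox word on the opposite strand 98 bases before the start (chr19:30549548-30549634, minus strand). Fabp7, a fatty acid binding protein of radial glia, has an E-box 118 bases before the start (chr10:57784765-57784850, plus strand). Cdh6, a cadherin of neural and kidney epithelium, is the lower gene, with a Sox word 53 bases before the start (chr15:13173682-13173768, minus strand).

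The libraries were checked first against the sort. Sox2 was at 16.4 FPKM in T+ Sox2+ cells, 50.5 in Sox2+ cells and 2.82 in T+ cells. The same 3 libraries had 341, 192 and 141 FPKM of T. Sox2+ cells thus held T mRNA too, at a higher level than T+ cells, so T mRNA did not follow the sort labels. The labels do not say that Sox2+ cells were sorted as T-negative. Tbx6, a T-box factor that directs cells to paraxial mesoderm, had 173, 47.9 and 152 FPKM. T and Sox2 were left out of the counts below because cells were sorted on them.

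Estimated depth was 23.3 M fragments for T+ Sox2+, 28.6 for Sox2+ and 28.9 for T+. This gives 116 to 144 fragments to a 1 kb gene with 5 FPKM. The counting error alone of a log2 difference is 0.15 (SE) at 5 FPKM and 0.04 at 100. This error covers neither embryos nor sorts nor library preparation, and in bulk RNA fewer cells of a type and less RNA per cell cannot be told apart. The genes on either side of the minimum were Rtn4ip1 (4.423 and 4.999 FPKM in T+ Sox2+ and Sox2+) and Vegfc (just under 5, and 3.906) just outside it, and B3gnt1 (5.001 and 4.779) and Armcx5 (4.964 and 5.003) just inside it.

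The stage of the libraries needs a remark before the results. Hoxc10, a posterior Hox gene, was at 280, 295 and 237 FPKM in the T+ Sox2+, Sox2+ and T+ fractions. In the other table it was at 1.45 FPKM in T+ WT cells at TS12 and 6.6 at TS13. Summed over 12 posterior Hox genes, paralogs 10 to 13, the fractions held 448, 413 and 372 FPKM, while the T+ libraries of the other table held 10.1 (WT) and 3.88 (T KO) at TS12 and 24.6 and 10.6 at TS13. Anterior Hox genes, paralogs 1 to 5, differed far less, with 492 to 613 FPKM in the fractions and 301 to 398 in the other table. Wnt8a, a ligand of the early caudal embryo, and the caudal factor Cdx1 went the other way, at 7.59 and 32.8 FPKM in T+ WT at TS12 and at 0.616 and 4.87 in the T+ fraction. The sources label both sets TS12. The 2 tables also differ in kit and cell number, and the part of these or of stage in the difference was not tested. Both sides of the comparison below come from 1 table and 1 kit.

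T+ Sox2+ cells had at least 2-fold more RNA of 130 genes (1.53% of 8495) and at least 2-fold less of 120 (1.41%). Differences at least 4-fold numbered 19 and 16. Most genes differed little: the median difference was -0.02, the SD over genes 0.39, and the central 95% of genes lay between -0.76 and 0.76. A pseudocount of 5 left 64 higher and 52 lower genes, and a minimum of 20 FPKM left 61 and 49. Of the 130 higher genes 38 belong to the lists of pathways and cell types used below, and so do 41 of the 120 lower ones. The plot of the 2 libraries against each other shows the bulk of genes on the diagonal.

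**Figure D1:**
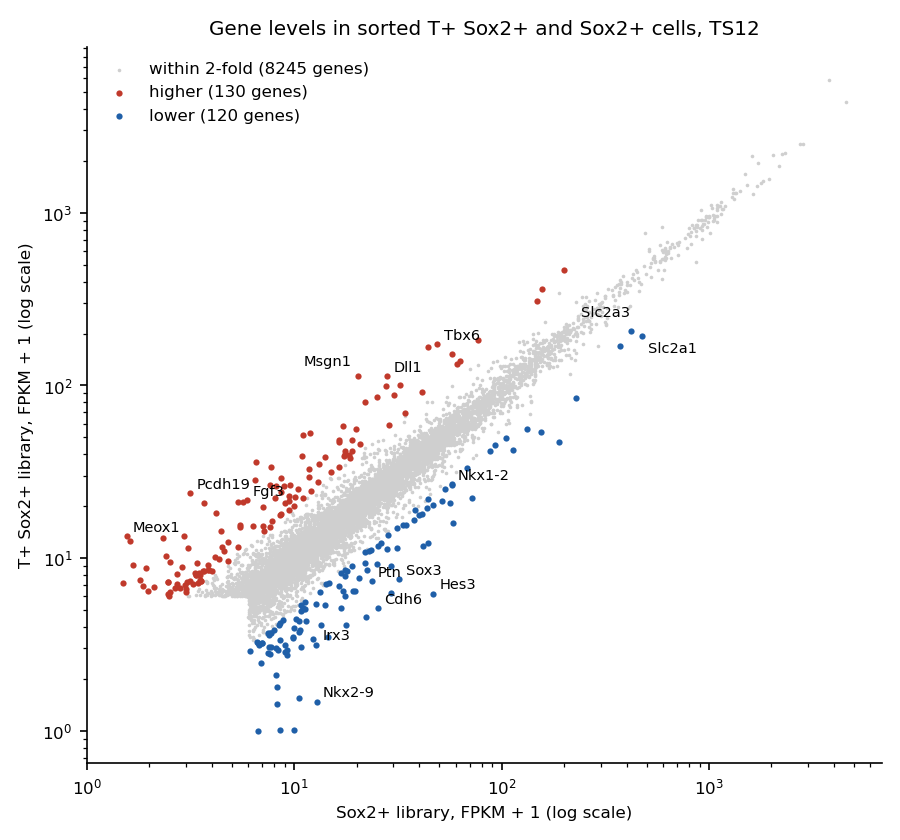
Each point is 1 gene at FPKM + 1 in the Sox2+ library (x) and the T+ Sox2+ library (y), both on log scales, 1 library each. The 130 higher genes lie above the band of 8245 genes within 2-fold and the 120 lower genes below it.

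Presomitic factors were among the highest genes. Of 8 compared members of the presomitic and somite transcription factor list, 6 were past 2-fold upward and 0 downward. Their median difference was 2.15, against -0.02 over all genes, and 1.03 over all listed members with no minimum. Meox1, a homeobox factor of somites, was at 12.5 FPKM in T+ Sox2+, 0.555 in Sox2+ and 28.6 in T+ cells, a difference of 3.12 and the highest of the 8495. Msgn1 was at 112, 19.3 and 76.5 FPKM, a difference of 2.47. The forkhead factors Foxc1 and Foxc2, needed for somite formation, were higher by 2.51 and 2.49, at 19.8 against 2.65 FPKM and 12.1 against 1.32. Tcf15 (paraxis), which keeps somites epithelial, was at 6.09 against 1.73 FPKM. The other 2 members were within 2-fold, and 1 of them lay below 0. That gene was Pax3, a factor of dorsal neural tube and somites, at 7.17 FPKM in T+ Sox2+ and 9.97 in Sox2+ cells.

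Some genes of later somite stages were listed under 5 FPKM in both libraries and were not compared. Mesp2, which sets somite boundaries, was at 1.66 FPKM in T+ Sox2+ and 0.307 in Sox2+ cells. Ripply1, a repressor acting with it, was listed at 0 in both, and Uncx and Tbx18, of formed somites, were at 0.103 and 0.0826 FPKM in T+ Sox2+ and 0 in Sox2+ cells. A value of 0 or near it can be a failed estimate in these tables, so it does not show that the RNA is absent.

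Surface and secreted genes of the presomitic list went with the factors: 9 of 11 compared were higher and 0 lower, with a median of 1.42. Some lists share members, so their counts are not separate results. Dll3 and Lfng are counted again with the Notch genes below, Rspo3 with the Wnt modulators and Fn1 with the EMT genes. Pcdh19, a protocadherin, was at 22.8 FPKM in T+ Sox2+, 2.14 in Sox2+ and 33.8 in T+ cells. Cited1, a transcriptional co-regulator, was at 165, 43.2 and 214 FPKM. Rspo3, a secreted enhancer of Wnt signalling, was at 151, 56.5 and 85.8 FPKM, and Fn1, fibronectin of the mesoderm matrix, at 307, 147 and 445. The retinoic acid synthase Aldh1a2 stood on the other side, at 4.36 FPKM against 7.65, and Notum, an inhibitor of Wnt ligands, was alike at 7.19 against 7.14. In each of Pcdh19, Cited1 and Fn1 the level of T+ Sox2+ cells lay between those of Sox2+ and T+ cells.

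Neural transcription factors were lower as a group. Of 15 compared, 8 were past 2-fold downward and 1 upward. The median was -1.44. With no minimum of 5 FPKM the median was -0.50 over all listed members. Nkx2-9, a homeobox factor of ventral neural tube, had the lowest difference (-3.11) among genes above 0.1 FPKM in both libraries, at 0.479 FPKM in T+ Sox2+ against 11.8 in Sox2+ cells. Olig3, of dorsal neural progenitors, was at 0.436 against 7.26 FPKM. The other SoxB1 factors were both lower: Sox1 at 5.28 against 28.3 FPKM and Sox3 at 6.61 against 31.1. Irx3 and Irx1, homeobox factors of the neural plate, were also lower, at 2.16 against 11.7 and 1.1 against 7.16 FPKM. Zic2 and Zic5, zinc finger factors of the dorsal neural tube, were at 10.5 against 30.1 and 2.74 against 9.56 FPKM.

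Not all neural genes were low. Sox11 was at 64.1 and 77.1 FPKM and Foxb1, a forkhead factor of the neural tube, at 33.5 and 33.2. Of 12 structural genes of neural progenitors 2 were higher and 3 lower, with a median of -0.22. Fabp7 was at 32.8 FPKM in T+ Sox2+, 6.75 in Sox2+ and 11.8 in T+ cells. Crabp1, which binds retinoic acid, was at 86.9, 29.3 and 171 FPKM. Ptn, a heparin-binding growth factor, was at 6.35 against 22.6 FPKM, the endocytic receptor Lrp2 at 5.91 against 15.4 and the neuronal tubulin Tubb3 at 2.67 against 6.48. Cdh2 (N-cadherin) was alike, at 125 and 120 FPKM, and Nes (nestin) at 15.1 and 13.3.

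**Figure D2:**
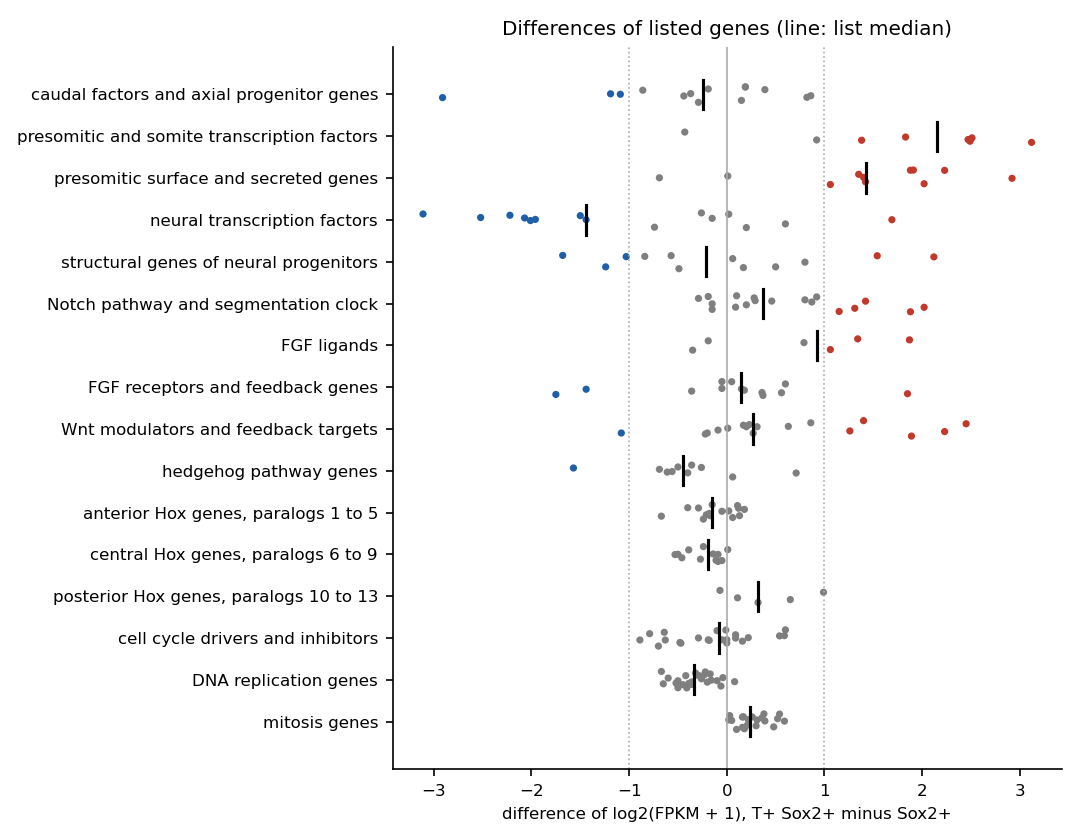
Each point is 1 compared gene of a list at its difference of log2(FPKM + 1), T+ Sox2+ minus Sox2+; vertical black lines are list medians, dotted lines mark 2-fold, and red and blue points are past it. Presomitic factors reach 3.12 and neural factors -3.11, while the Hox lists stay within 2-fold on this scale.

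Genes that mark axial progenitors were not alike in direction. Of 14 compared, 3 were past 2-fold downward and 0 upward, and the median was -0.24. Hes3, a Hes repressor of progenitors, was at 5.24 FPKM in T+ Sox2+, 45.7 in Sox2+ and 0.208 in T+ cells. The homeobox gene Nkx1-2, which marks caudal progenitors, had 25.8, 56.3 and 1 FPKM, and the homeobox gene Gbx2 had 19.4, 45.6 and 22.3. The caudal factors Cdx2 and Cdx4 were near each other in both libraries, at 108 against 94.2 and 225 against 203 FPKM. Cyp26a1, which degrades retinoic acid, was at 184 and 140 FPKM and at 23.9 in T+ cells. Hes3, Nkx1-2 and Cyp26a1 were thus higher in both Sox2-sorted fractions than in T+ cells.

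**Figure D3:**
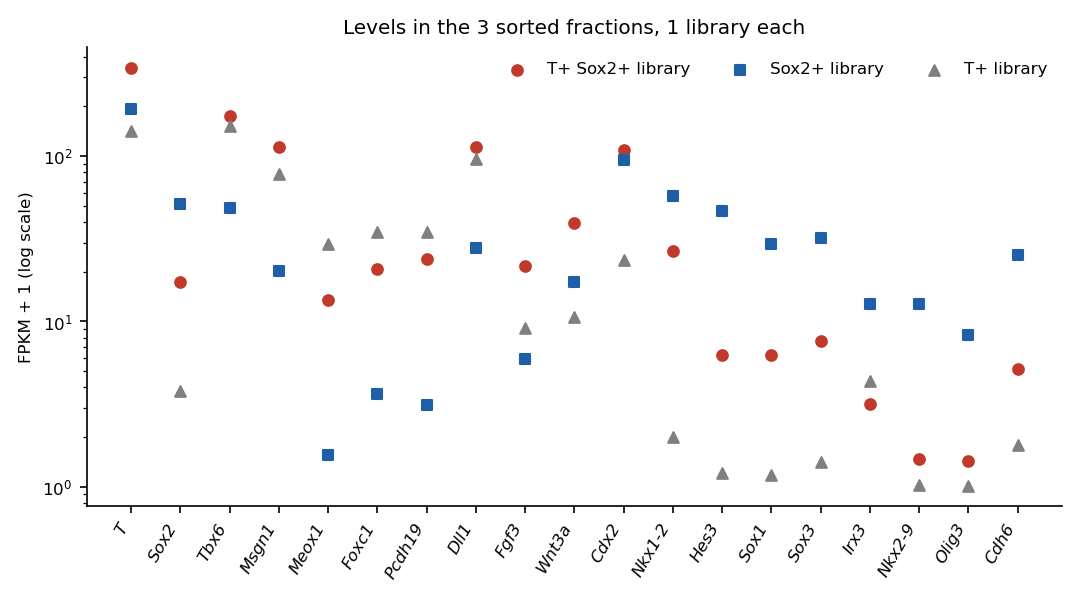
FPKM + 1 on a log scale in the T+ Sox2+ (circles), Sox2+ (squares) and T+ (triangles) libraries, 1 library each, for genes the text turns on. Sox1, Sox3 and Nkx2-9 are highest in Sox2+ cells and Fgf3 and Wnt3a highest in T+ Sox2+ cells.

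The ligands Fgf3, Fgf4, Fgf15 and Wnt3a were higher in T+ Sox2+ cells. Of 6 compared FGF ligands 3 were past 2-fold upward and 0 downward, against 1.53% and 1.41% of all genes. Of these, Fgf3 and Fgf4 reached the minimum of 5 FPKM in the T+ Sox2+ library but not in the Sox2+ library. They could thus enter the count only as higher. The median of the FGF ligands was 0.92, and 0.79 with no minimum. Of 3 compared Wnt ligands, of 14 listed, Wnt3a alone was past 2-fold upward. The median of the Wnt ligands was 0.53, and 0.07 over all listed members with no minimum. Fgf3 was at 20.6 FPKM in T+ Sox2+, 4.89 in Sox2+ and 8.15 in T+ cells, Fgf4 at 5.7, 1.65 and 1.3, and Fgf15 at 30.4, 14.1 and 10.6. Fgf8, the main caudal ligand, was at 78.8, 45.1 and 20.9 FPKM, a difference of 0.79. Fgf17 and Fgf18 were slightly lower, at 90.3 against 103 and 15.9 against 20.6. Wnt3a, the Wnt ligand that maintains the progenitors, was at 38.2, 16.3 and 9.62 FPKM.

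The receptors and feedback genes of FGF signalling differed less: of 13 compared, 1 was higher and 2 lower. Fgfr1, the main receptor of mesoderm, was at 40.8 and 42.1 FPKM, and the phosphatase Dusp6, a feedback target, at 83.1 and 80.2. Fgfr2, a receptor more common in epithelia, was at 1.74 against 8.21 FPKM, and the inhibitor Spry1 at 19.8 against 55.6. Its relatives Spry4 and Spry2 were not lower, at 42.6 against 27.8 and 20.5 against 17.9. Snai1, which represses epithelial genes and is listed with both FGF targets and EMT factors, was at 98.2 against 26.6 FPKM.

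Wnt modulators were higher in part: of 17 compared, 5 were higher, 1 lower and 11 within 2-fold. Shares over all genes were 1.53% higher and 1.41% lower. The median of the list was 0.27 and became 0.94 with a minimum of 20 FPKM. Nkd2, an inhibitor of Dishevelled, was at 34.9 FPKM in T+ Sox2+, 5.56 in Sox2+ and 65.2 in T+ cells. Dkk1 was at 50.5, 9.98 and 36.4 FPKM, and Frzb, a secreted Frizzled decoy, at 20.1, 4.68 and 31.6. Lef1, a DNA-binding factor of the pathway, was at 182 against 75.6 FPKM. The feedback gene Axin2 was at 55.9 against 44.8 FPKM, and Sfrp2, another secreted decoy, was the lower one at 24.3 against 52.5.

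Genes of the Notch pathway and the segmentation clock were higher in part: 5 of 18 compared were higher and 0 lower, with a median of 0.37. The list does not hold Dtx4, a ubiquitin ligase of the Notch pathway, which was lower, at 8.02 against 28.3 FPKM. The ligands Dll1 and Dll3 were at 112 against 27 and 79.5 against 20.9 FPKM, and Lfng, which modifies the receptors, at 34.3 against 12.2. Nrarp, a feedback inhibitor, was at 90.6 against 40.3 FPKM and the receptor Notch4 at 9.21 against 3.13. Hes7, the clock repressor, was at 47 against 24.4 FPKM, a difference of 0.92. Hes1, also a clock gene, was at 58.1 and 54.2, and Hes5, a neural target of Notch, at 5.26 and 5.96.

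Fewer genes of the other signals were past 2-fold, and the shares over all genes were 1.53% higher and 1.41% lower. Of 10 hedgehog genes 0 were higher and 1 lower, with a median of -0.45: the effector Gli2 was at 5.45 against 18.1 FPKM. Of 10 BMP and TGF-beta genes 2 were lower, Gdf10 (a ligand, 0.548 against 9.51 FPKM) and Id2 (an inhibitor of basic helix-loop-helix factors, 54.7 against 131), and 0 higher. Of 10 retinoic acid genes only Crabp1 was past 2-fold, while Crabp2 was at 144 against 215 FPKM. The receptor Rarg was at 91.8 and 95.9 FPKM.

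No Hox gene with at least 5 FPKM was past 2-fold on the log2(FPKM + 1) scale (0 of 15 anterior, 0 of 12 central and 0 of 5 posterior genes). The medians were -0.15, -0.19 and 0.32. Over all genes 1.53% were higher and 1.41% lower. The largest difference was that of Hoxd11, at 33.7 against 16.5 FPKM (0.99), and Hoxa5 was the lowest, at 27.9 against 45 (-0.67). The plain FPKM ratio of Hoxd11 was 2.05. Its difference was 1.03 with a pseudocount of 0.1 and 1.01 with median ratio scaling, so its call turned on these settings. In the central list 1 of 12 genes had a difference above 0.

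Guidance and adhesion genes differed by member. Plxna2, a semaphorin receptor, was at 20.1 FPKM in T+ Sox2+, 4.33 in Sox2+ and 23.5 in T+ cells, while the secreted semaphorins Sema3a and Sema3e were at 11.2 against 43 and 3.13 against 16.8 and their receptor Nrp2 at 13.9 against 30.1. Of 15 genes of this family 2 were higher and 3 lower. Cdh6 was at 4.13 FPKM in T+ Sox2+, 24.4 in Sox2+ and 0.789 in T+ cells, and the planar polarity cadherin Celsr2 at 2.34 against 7.57. Of 20 epithelial junction genes 8 were compared, and 0 were past 2-fold in either direction. Over all genes 1.53% were higher and 1.41% lower, so a count of 0 among 8 is near that share. Cldn6 was at 14.7 and 13.3 FPKM and Tjp1 at 45.5 and 61.1. Of 9 EMT and mesenchymal genes 3 were higher and 0 lower, Snai1, Fn1 and the matrix protease Mmp2 (40.7 against 17.9 FPKM), and Vim was at 125 against 88.2. In the matrix list Lama1, a laminin chain, was at 25.1 against 7.9 FPKM, while Col2a1, a fibrillar collagen, was at 6.7 against 19.4 and Itga6, an epithelial laminin receptor, at 6.88 against 16.6.

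DNA replication and mitosis genes differed by little and in opposite directions. Of 24 replication genes 23 lay below 0, with a median of -0.34 and 0 past 2-fold, and of 20 mitosis genes 20 lay above 0, with a median of 0.24 and 0 past 2-fold. Over all genes compared 47.4% lay above 0, and 1.53% were higher and 1.41% lower by 2-fold or more. Cdc6 and Cdt1, which license origins, were at 13.7 against 22.3 and 28.4 against 45.1 FPKM, and Pcna, the sliding clamp, at 287 against 413. Top2a and Ccnb1, high around mitosis, were at 136 against 90.3 and 138 against 94.2 FPKM. Mki67, expressed in all cycling cells, was at 119 and 112. In T+ cells Pcna was at 320 FPKM and Ccnb1 at 105.

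**Figure D4:**
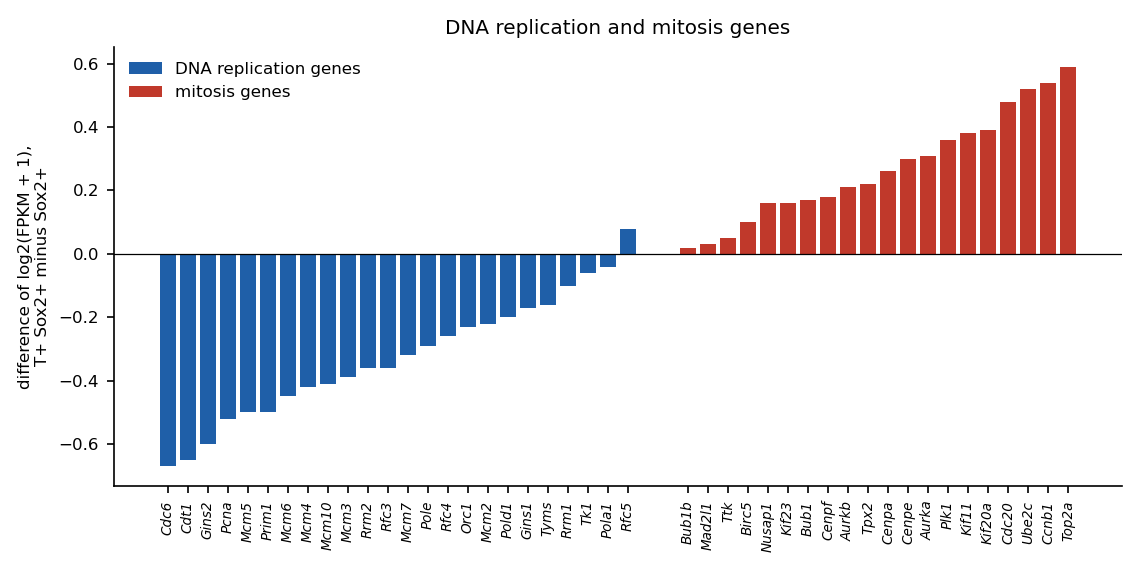
Bars are differences of log2(FPKM + 1), T+ Sox2+ minus Sox2+, for each compared gene of the DNA replication list (blue) and the mitosis list (red), sorted within each list. 23 of 24 replication genes lie below 0 and 20 of 20 mitosis genes above 0.

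Glucose transporters were lower, and glycolytic enzymes were within 2-fold. Slc2a1 was at 192 FPKM in T+ Sox2+, 474 in Sox2+ and 112 in T+ cells, and Slc2a3 at 205, 421 and 54.6. They were the 2 lower genes among 21 of the glycolysis list, with 0 higher. The enzymes Ldha, Pkm and Aldoa were at 1931 against 1722, 1035 against 910 and 963 against 969 FPKM, and Gapdh at 410 against 590. Of 29 nuclear oxidative phosphorylation genes 0 were past 2-fold, with a median of 0.03. Among 16 p53 and apoptosis genes only Pmaip1, an inducer of apoptosis, was past it, at 20.5 against 50.8 FPKM. Since 1.53% of all genes were higher and 1.41% lower, a count of 0 among 29 is near that share. A count of 1 among 16 is too small to set that list apart. The growth regulator Plagl1, an imprinted gene, was at 46.3 FPKM against 188, the imprinted gene Mest, which overlaps Copg2, at 83.9 against 228, and Phlda2 at 17.3 against 3.18.

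Several of the most different genes belong to no list above. Otx1, a homeobox factor best known from the brain, was at 7.72 against 0.929 FPKM, and Aplnr, the apelin receptor, at 27.3 against 5.44. Pth1r, a hormone receptor, was at 6.47 against 0.803 FPKM, and Gzmk, a granzyme, at 8.13 against 0.663. Mpzl2, a cell adhesion protein, was at 12.4 against 1.94, and Blnk, a signalling adaptor known from B cells, at 10.4 against 2.07. Among the lower genes Cntfr, a cytokine receptor, was at 15 against 57.3 FPKM. Tox2, a nuclear HMG-box protein, was at 2.49 against 13.6, the volume-regulated channel subunit Lrrc8c at 2.41 against 11.3, and Slc29a1, a nucleoside transporter, at 3.11 against 12.4. Some values are uncertain: Hba-a2 (11.5 against 0.611) and Hba-a1 (18.6 against 42.6) are near-identical globin copies that went opposite ways, as did Amd2 (52 against 10.9) and Amd1 (21.4 against 71.2). 3 lower genes, Tmem254c, Inafm2 and Ndufs5, were at or under 0.1 FPKM in T+ Sox2+ cells, where a value can be a failed estimate.

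Markers of other cell types were mostly low in both Sox2-sorted libraries. Red cell genes summed to 151 FPKM in T+ Sox2+ and 276 in Sox2+ cells, against 15265 in T+ cells, with Hba-x at 40.6, 87.3 and 5119 FPKM. The endothelial cadherin Cdh5 was at 0.205, 1.11 and 14.5 FPKM. Of 17 red cell and blood markers 8 were under 1 FPKM in both libraries, as were 12 of 16 endothelium markers, 7 of 19 lateral plate and intermediate mesoderm, 4 of 13 notochord, 11 of 17 endoderm, 7 of 17 surface ectoderm and 5 of 14 neural crest markers. Among endothelium markers only Lmo2 was compared (57.6 against 16.1). Lateral plate and intermediate mesoderm markers summed to 39 FPKM in T+ Sox2+, 18.7 in Sox2+ and 225 in T+ cells, with 2 of 19 compared and 0 past 2-fold. The endoderm factor Sox17 was at 0.4 and 0 FPKM and the neural crest factor Sox10 at 0 and 0.529. The part of these cells in the results above was not tested.

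The same genes were then read in T KO, in libraries that share none with the sort. At TS12, 81 of the 130 higher genes reached 5 FPKM in the T KO table, and 25 of the 81 (30.9%) were at least 2-fold lower in T KO than in WT, against 1.09% (88 of 8092) of all genes there. None of the 81 was as much higher (0), against 0.964% of all genes. At TS13, 42 of 86 compared (48.8%) were lower, against 1.48% of all genes, and 0 were higher, against 1.19%. Put as shares of each list, the 25 are 19.2% of the 130 and 28.4% of the genes lower in T KO at TS12, and the 42 are 32.3% and 34.7% at TS13. The median T KO difference of the higher genes was -0.73 at TS12 and -0.98 at TS13, against 0.03 and -0.04 for all genes. Strain goes with genotype in these libraries, and its part in these counts cannot be told apart.

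The genes lower in T+ Sox2+ cells leaned the other way. At TS12, 14 of 63 compared (22.2%) were higher in T KO (0.964% of all genes) and 0 lower, and at TS13 30 of 81 (37%) were higher (1.19% of all genes) and 3 lower (Amd1, Fam195a and Inafm2). As shares, the 14 are 11.7% of the 120 and 17.9% of the genes higher in T KO at TS12, and the 30 are 25% and 30.9% at TS13. The median differences were 0.72 and 0.83. The T+ WT library of TS12 is the one that stood apart. With T KO at TS12 set against the T+ WT library of TS13 instead, 31 of 84 higher genes compared were lower in T KO (1.38% of all 8126 genes compared) and 0 higher (0.615%). Of 66 lower genes compared, 5 were higher and 5 lower.

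**Figure D5:**
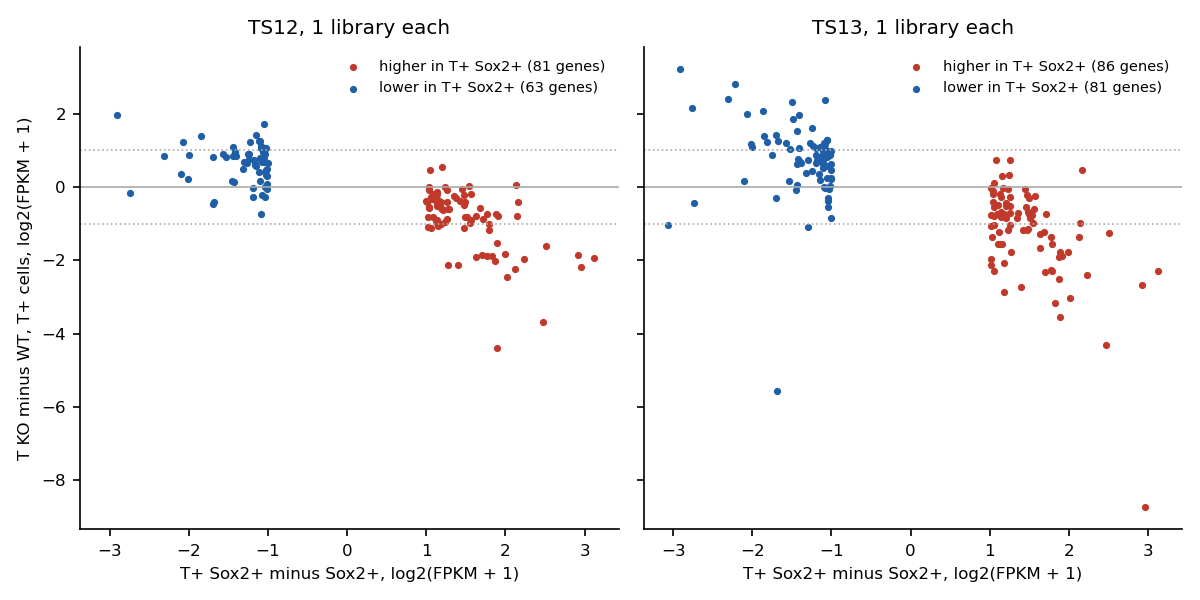
Each point is 1 gene past 2-fold in the sort, at its difference in the sort (x) and its T KO minus WT difference in T+ cells (y), both in log2(FPKM + 1), at TS12 (left) and TS13 (right), 1 library each. Red points are the higher genes and blue the lower; dotted lines mark 2-fold. At TS13, 42 red points lie below the lower dotted line and 30 blue points above the upper one.

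Of 76 higher genes compared at both stages, 23 were down 2-fold or more in T KO each time, against 0.536% (42 of 7841) of all genes compared at both. Msgn1 had 3.48 FPKM in T KO and 56.9 in WT cells of TS12, and 1.18 and 42.5 in those of TS13. Tbx6, Dll1, Rspo3, Fgf3, Pcdh19, Meox1, Foxc1 and Plxna2 were also among the 23. Fgf3 was at 2.01 against 11.3 FPKM and at 0.745 against 9.01. Dll1 was at 7.53 against 46.2 FPKM and at 5.17 against 49.5. Arg1, arginase, was another, at 5.87 against 0.853 FPKM in the sort with T KO differences of -4.39 at TS12 and -3.56 at TS13. Of 62 lower genes compared at both, 10 were up 2-fold or more each time, against 0.293% (23 of 7841) of all genes: Ddr1, Fam84b, Hba-a1, Hes3, Mt1, Nin, Nkx1-2, Sema3a, Sox3 and Zic2. Both counts rest in part on the T+ WT library of TS12 that stood apart. Hba-a1 is an uncertain near-identical copy of Hba-a2, which is among the 23 higher genes. Hes3 had 9.13 FPKM in T KO and 1.62 in WT cells of TS12, and 30.1 and 2.35 in those of TS13. Sox3 was at 6.24 against 2.12 and 11 against 1.99, and Sema3a at 18.9 against 6.58 and 32.3 against 11.6. Nkx2-9 was listed at 0 in T KO and WT cells of TS12.

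Some genes are given for both stages without a test of the difference between them. Wnt3a had 12 FPKM in T KO and 16.3 in WT cells of TS12, and 1.66 and 18.6 in those of TS13. Cyp26a1, near alike in the sort, had 11.5 FPKM in T KO and 45.1 in WT cells of TS12, and 6.12 and 77.6 in those of TS13. The imprinted RNA Meg3 had 0.0629 FPKM in T KO and 22.1 in WT cells of TS12, and 0.0785 and 20 in those of TS13. Rian and Mirg, near Meg3 on chromosome 12, were at 0.215 against 107 and 0.0741 against 16.4 FPKM at TS12. At TS13 they were at 0.177 against 110 and 0.196 against 11.9. This difference goes with genotype, as strain does, and its part in the counts above was not tested. Of the imprinted genes compared at TS12, 4 of 20 were lower in T KO (1.09% of all genes) and 1 higher (0.964%). At TS13, 5 of 19 were lower (1.48%) and 2 higher (1.19%). Leaving out imprinted and near-identical genes gave 24 and 40 higher genes that were lower in T KO.

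In the single T+ Sox2+ cells at TS13, cells in which a gene reached 1 FPKM were counted. T reached it in 53 of 53 cells, Sox2 in 46 and Tbx6 in 46. Dll1, Rspo3 and Cited1, higher in the sort, reached it in all 53, and Pcdh19 in 37, Msgn1 in 15 and Meox1 in 4. Of the lower genes Sox3 reached it in 22 cells, Hes3 in 17, Nkx1-2 in 12, Sox1 in 5, Nkx2-9 in 3 and Olig3 in 0. The median over genes was 22 cells for the higher genes, 12.5 for the lower genes and 35 for all compared genes. The depth of each cell is unknown, so a cell under 1 FPKM is not shown to lack the RNA. Hoxc10, at 280 FPKM in the bulk T+ Sox2+ fraction, reached 1 FPKM in 6 cells. Cdx1, at 2.97 FPKM in that fraction, reached it in 45. The cells thus differ from the fraction in more than the sort, and the part of stage or method was not tested. The cell counts are no like-for-like check of the sort.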

How the data were processed

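Sorted cells were profiled by RNA sequencing, with libraries from the TotalScript kit for the sorted fractions and ScriptSeq for the T KO table, per the labels' protocols. The authors deposited FPKM, with a single row for each symbol. The submitters' processing notes name build mm10 and SAMtools, Picard 1.103, bedtools 2.23.0, Cuffdiff, Cufflinks 2.2.1, Bowtie 1.1.2 and TopHat2 2.1.0. Not given in the sources used here are the role of each tool, the gene annotation and any scaling across libraries. Each difference lies within 1 table, because the tables were taken as normalised separately.

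Of 23983 symbols, 2466 (mitochondrial genes, Gm-numbered models, small RNAs, pseudogenes, joined symbols) were left out. Differences were taken of log2(FPKM + 1), with a pseudocount of 1, for genes with at least 5 FPKM in 1 library, and called at 2-fold. FPKM are not counts and each group has 1 library, so no test was run. Depth was estimated from whole-fragment steps of FPKM times gene length (tolerance 0.0003, up to 15 fragments, genes up to 6000 bases): 161, 131 and 129 genes of 489, 389 and 376 searched in T+ Sox2+, Sox2+ and T+ lay on steps, against 10, 11 and 10 with shuffled lengths. The step search was tested on simulated data. Named genes were T, Sox2, Tbx6, the 25 highest and 25 lowest over 0.1 FPKM in both libraries, per list up to 6 members with the largest differences and those past 2-fold against the list's direction, the most abundant unchanged member, and marker genes at or under 1 FPKM. Genes named beyond that rule were chosen after their values were seen. Members and lists were chosen with earlier results of these data known. Alternatives covered pseudocount, minimum, scaling, threshold, excluded symbols and low values. Python 3.11.15, pandas 2.3.3, numpy 2.4.6 and matplotlib 3.10.9 were used. Chromatin libraries and Tbx6+ libraries were not analysed here, and a few genes that the naming rule picks are not reported here.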

Additional observations from a re-analysis of the deposited data

How the results depend on the processing

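With 1 library per group no replicate could be left out. No paired analysis was possible because each group has 1 library. The counts in T KO under every alternative, the omission of imprinted genes and the use of the WT library of TS13 were chosen after seeing the data. Median ratio and upper quartile scaling moved levels by 0.019 and 0.004 (log2), left all counts within 1.5 times and changed the sign of no list median or named gene. For the 39 lists other than presomitic and neural transcription factors, 211 of 229 medians under alternatives moved by at most 0.29 and 18 by more. Of 868 values of named genes 775 moved by at most 0.29 and 93 by more. Medians of the presomitic and neural factors are not in these totals and are given below. No named gene changed sign (0), but 4 list medians did: endoderm markers from 0.14 to -0.39 and epithelial junction genes from 0.04 to -0.15 with a minimum of 20 FPKM, and neural crest markers from 0.21 to -0.19 and surface ectoderm markers from 0.12 to -0.10 with no minimum. The 130 higher and 120 lower genes became 64 and 52 with a pseudocount of 5, 61 and 49 with a minimum of 20 FPKM, 339 and 368 at 1.5-fold, and 19 and 16 at 4-fold, and with no minimum the higher genes became 206. The median of presomitic factors became 1.54 with a pseudocount of 5, 1.83 with a minimum of 20 FPKM and 1.03 with no minimum, and that of neural factors -0.91 with a pseudocount of 5 and -0.50 with no minimum. In T KO at TS12, higher genes that were lower numbered 11 with a pseudocount of 5, 39 with no minimum, 6 with a minimum of 20 FPKM, 65 at 1.5-fold and 4 at 4-fold, and those that were higher 2 with a pseudocount of 0.1, 3 with no minimum and 6 at 1.5-fold. Lower genes that were higher numbered 4 with a pseudocount of 5, 4 with a minimum of 20 FPKM, 77 at 1.5-fold, 0 at 4-fold and 5 against WT of TS13, and those that were lower 2 with no minimum, 9 at 1.5-fold and 5 against WT of TS13. At TS13, higher genes that were lower numbered 22 with a pseudocount of 5, 69 with no minimum, 16 with a minimum of 20 FPKM, 105 at 1.5-fold and 6 at 4-fold, and those that were higher 2 with no minimum and 8 at 1.5-fold. Lower genes that were higher numbered 9 with a pseudocount of 5, 7 with a minimum of 20 FPKM, 94 at 1.5-fold and 5 at 4-fold, and those that were lower 1 with a pseudocount of 5, 7 with no minimum, 1 with a minimum of 20 FPKM, 14 at 1.5-fold, 0 at 4-fold and 1 without genes at or under 0.1 FPKM. A looser minimum or threshold admits more genes by construction, and for the change with the WT library the cause was not tested.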

Other observations

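Protein families outside the named pathways also differed by member. Efna1, Epha1 and Ephb4, of ephrin signalling between cells, were at 45.1 against 22.7, 28 against 13.9 and 47.5 against 25.9 FPKM, with differences of 0.96, 0.96 and 0.85 on the log2(FPKM + 1) scale, under the threshold of 1, while Epha2 was at 10.2 against 22.5. Ifitm1, an interferon-induced membrane protein of the primitive streak, was at 342 against 189 FPKM, and Mixl1, a homeobox factor of the streak, at 8.48 against 4.36. Mixl1 had 0.483 FPKM in T KO and 6.13 in WT cells of TS12, and 0.194 and 6.53 in those of TS13. The retinoblastoma gene Rb1 was at 4.88 against 9.94 FPKM, and the proto-oncogene Myc at 31 against 50.8.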
